A study of Mus musculus with 2 samples.

Results

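Maturing proximal tubule nuclei were examined in 2 single-nucleus RNA sequencing libraries of whole mouse kidney, made from a pool of late embryos (E18.5) and a pool of newborns at postnatal day 3 (P3). A nucleus was a member when at least 3 of 8 genes had a unique molecular identifier (UMI, the tag that counts a captured RNA molecule once) and those genes together held at least 0.15% of its UMIs. The 8 genes were Slc27a2, Slc7a12, Cyp2j5, Slc17a3, Aadat, Aspa, Slc22a27 and Slco1a6, so the members were chosen by measured values of the same nuclei. At E18.5, 749 of 18673 kept nuclei were members, which is 4.01% (95% exact binomial interval 3.73 to 4.30). At P3, 1120 of 9289 were members, which is 12.1% (11.4 to 12.7). The E18.5 mice were Mycf/f;Mycnf/f without Cre on a mixed background, and the P3 mice were wild type C57BL/6J by their label, although a mixed background is described for both ages in the methods of the study. Both pools combined male and female kidneys that had been snap-frozen. With 1 library per age, age cannot be told apart from genotype, strain, pool, sex mix or library, no test between the ages was possible, and every interval covers counting error only.

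The proximal tubule is the part of the nephron that reclaims most of the glucose, amino acids, phosphate, bicarbonate and filtered protein, and it secretes organic anions and cations through paired transporters on its blood and lumen sides. It burns fatty acids in mitochondria and peroxisomes, and it is the site in the kidney where new glucose is made and vitamin D is activated. Around birth its cells leave the cell cycle, build a brush border and take up these functions, and the tubule divides into segments, the first next to the glomerulus and the last in the outer medulla. The rule genes belong to this late program of transport and metabolism.

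Among the rule genes, the acyl-CoA synthetase gene Slc27a2 lies at chr2:126552407-126588243 (mm10, plus strand), the aminotransferase gene Aadat at chr8:60505932-60545677 (plus) and the arachidonic acid epoxygenase gene Cyp2j5 at chr4:96628773-96664154 (minus). Aspa, which encodes an enzyme that splits N-acetylaspartate, lies at chr11:73304992-73329596 (minus), and the phosphate and urate carrier gene Slc17a3 at chr13:23839434-23860716 (plus). The amino acid transporter gene Slc7a12 is at chr3:14480697-14505830 (plus), Slc22a27 of the organic anion transporter family at chr19:7864388-7966027 (minus) and Slco1a6 of the organic anion transporting polypeptide family at chr6:142085761-142208521 (minus). Their levels are given as CPM, a gene's share of UMIs scaled to parts in 10 to the power of 6 and taken from UMIs summed over the nuclei of a set. In members Slc27a2 was at 553 CPM at E18.5 and 586 at P3, and Aadat at 1149 and 1116. Cyp2j5 was at 971 and 870 CPM and Slc22a27 at 424 and 404. These 4 genes differed little between the libraries, and 3 others were lower at P3. Aspa was at 1208 CPM at E18.5 and 466 at P3, Slc7a12 at 465 and 161, and Slc17a3 at 356 and 258. Slco1a6 alone was about doubled, with 282 CPM at E18.5 and 562 at P3. None of this tests the rule, since these genes chose the nuclei.

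**Figure D1:**
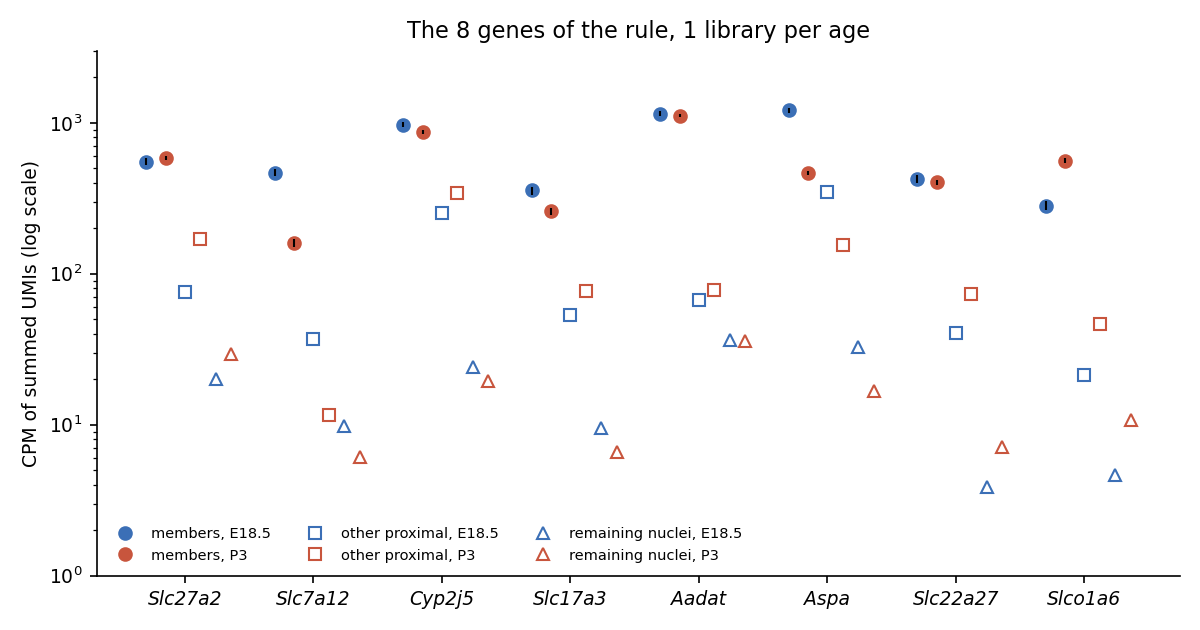
Level of each rule gene (CPM of summed UMIs, log axis) in members, in other proximal nuclei and in all remaining kept nuclei at E18.5 and P3, with 95% counting intervals as black lines for members. Slco1a6 is the gene that is higher at P3 in members by the widest margin, and Aspa and Slc7a12 are the ones lower by the widest margin.

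Sequence before the transcription starts was searched for 4 short motifs, because the hepatocyte nuclear factors HNF4 and HNF1, nuclear receptors that bind direct repeats, and cyclic AMP signalling are known regulators of proximal tubule and gluconeogenic genes. The motifs were CAAAGTCCA for HNF4, AGGNCAAAG for a direct repeat 1 core, GTTAATNAT for an HNF1 partial palindrome and TGACGTCA for a cyclic AMP response element, on both strands of the 250 bases before each RefSeq start (GRCm38.p6, the assembly behind mm10). The HNF4 and direct repeat motifs share the letters CAAAG and can overlap. Windows were found for 60 of 76 genes of the lists used here. Of the 7 rule genes with a window, Aadat held the HNF4 motif, against 0.451% of all 27025 genes. Cyp2j5 and Slc27a2 held the direct repeat core, against 2.08% of all genes. Capitals mark the motif, on whichever strand it lies, in the sequences of these 3 rule genes and of 4 genes described later, the glucose-6-phosphatase gene G6pc, the mitochondrial carrier gene Slc25a25 and the organic anion transporter genes Slc22a29 and Slc22a6.
Aadat, chr8:60506042-60506070 on the plus strand: cctctgtggaTGGACTTTGtcccttctgc
Slc27a2, chr2:126552791-126552819 on the plus strand: agcaccacgcCTTTGACCTtttcaacgtg
Cyp2j5, chr4:96664278-96664346 on the minus strand: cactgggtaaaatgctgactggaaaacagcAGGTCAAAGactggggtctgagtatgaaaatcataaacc
G6pc, chr11:101367466-101367533 on the plus strand: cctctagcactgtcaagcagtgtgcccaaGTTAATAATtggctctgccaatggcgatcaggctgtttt
Slc25a25, chr2:32424179-32424246 on the minus strand: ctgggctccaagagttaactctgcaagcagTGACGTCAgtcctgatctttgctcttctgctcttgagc
Slc22a29, chr19:8218901-8218962 on the minus strand: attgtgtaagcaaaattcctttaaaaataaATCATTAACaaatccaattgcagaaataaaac
Slc22a6, chr19:8617954-8617995 on the plus strand: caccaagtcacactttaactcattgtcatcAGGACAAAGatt

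In the GENCODE M21 annotation the Cyp2j5 motif lies 154 bases before the gene, that of G6pc 58, that of Slc22a29 24 and that of Slc22a6 47. The motifs of Aadat and Slc27a2 fall in an annotated exon and that of Slc25a25 in an annotated intron, so for these 3 genes the RefSeq start lies inside the GENCODE gene. It also does for Cyp2j5 and G6pc, whose motifs end 189 and 213 bases before the RefSeq start. The HNF1 motif was in 0.866% of all genes and the cyclic AMP element in 1.77%. Of 8 gluconeogenesis and fructose genes with a window, 1 held the HNF1 motif and 0 held any of the other 3 motifs. Of 19 organic ion carriers, 1 held the HNF1 motif, 1 the cyclic AMP element, 2 the direct repeat core and 0 the HNF4 motif. Among the genes with the highest ratios of P3 over E18.5, 5 had a window and 1 of these held the cyclic AMP element. A match is a description of the letters and not a binding site.

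The label was checked against genes that the rule did not use. Of 8 general proximal tubule markers, at least 3 were detected at a summed share of 0.3% or more in 662 of the E18.5 members (88.4%) and 1054 of the P3 members (94.1%). Lrp2, which encodes the endocytic receptor megalin, was at 2739 CPM in members and 151 in all remaining nuclei at E18.5, and at 3168 and 155 at P3. The transcription factor gene Hnf4a was at 259 and 16.0 CPM at E18.5 and at 295 and 12.2 at P3. The remaining nuclei leave out other proximal nuclei, which were set apart by general markers that include Lrp2 and Hnf4a. Their low levels of these 2 genes were thus partly fixed in advance. The other proximal nuclei had 2197 CPM of Lrp2 at E18.5 and 2537 at P3, and 192 and 189 CPM of Hnf4a. Members thus carried the defining genes of the tubule at both ages, as did the other proximal nuclei.

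Markers of other kidney classes were also counted. The podocyte rule (at least 3 of 8 markers and 0.15% of UMIs) was met by 139 members at E18.5 (18.6%) and 127 at P3 (11.3%). The most abundant gene of that list in members was Magi2, at 1793 and 1188 CPM, and the summed level of the list was 2197 and 1447 CPM in members against 3449 and 2742 in the remaining nuclei. The defining podocyte gene Nphs1 was at 26.2 CPM in E18.5 members, below the 70.4 of the remaining nuclei, and at 23.0 in P3 members, below 65.6. Stromal markers met their rule in 34 and 22 members, erythroid markers in 24 and 2, and endothelial markers in 10 and 27. No other class was met by 552 E18.5 members (73.7%) and 936 P3 members (83.6%). The doublet caller marked 13.2% of E18.5 members and 16.0% of P3 members, against 10.2% and 9.67% of all kept nuclei. Without called doublets the log2 ratio of P3 over E18.5 was 4.04 for G6pc, 2.90 for Pck1 and -2.40 for Cyp27b1, against 3.92, 2.87 and -2.44 with them.

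Proximal tubule genes were also detected in nuclei of other classes, which gives the background of these values. After each nucleus was thinned to 1000 UMIs, Lrp2 was detected in 89.0% of P3 members and 14.3% of P3 endothelial nuclei. Slc27a2 was detected in 39.5% of E18.5 members and 2.97% of E18.5 endothelial nuclei, and in 42.3% and 3.22% at P3. Without thinning these shares were 74.6% and 7.28% at E18.5 and 89.4% and 11.3% at P3. The median member held 3990 UMIs at E18.5 and 6130.5 at P3, and the median endothelial nucleus 3067.5 and 3770.5. The parts of free RNA, doublets and proximal nuclei that missed both rules in this background were not tested.

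Depth also bears on who is a member. At E18.5 the median UMI count was higher with more rule genes found, from 2919.5 in the 162 members with 3 genes to 4783.5 in the 52 with all 8, and at P3 from 3919 in 123 members to 7173 in 85. When every kept nucleus was thinned to 1000 UMIs before the rule, the share of members was 2.36% at E18.5 and 5.59% at P3. With an upper limit of 6000 UMIs in both libraries, in place of 10000 at P3, it was 4.01% and 7.71%. The share stayed higher at P3 under both, but the gap narrowed. Members just inside the threshold (0.15% to 0.20%) numbered 96 and 197 and had 2479 and 3038 CPM of Lrp2. Nuclei just outside it (0.10% to 0.15%) numbered 133 and 173 and had 1788 and 2891. Nuclei with 3 rule genes had 2572 and 2926 CPM of Lrp2, and nuclei with 2 rule genes and the same minimum share had 1644 and 2088, at median depths of 1295 and 1130.5 UMIs. Lrp2 was lower just outside either edge at both ages.

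Members varied in their genes of the tubule segments. Genes of the first segment, Slc5a2, Slc5a12, Slc6a19 and Slc2a2, were most abundant in members with few rule genes. Their summed level at E18.5 was 701 CPM in the 310 members with 3 to 4 rule genes, 362 in the 285 with 5 to 6 and 132 in the 154 with 7 to 8. At P3 it was 2868, 1652 and 477 CPM in 336, 518 and 266 members. Slc5a12, a sodium-coupled lactate carrier, went from 503 to 166 to 20.5 CPM at E18.5 and from 1987 to 1142 to 263 at P3.

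Genes of the last segment had the opposite order in the same nuclei. The summed level of Slc7a13, Cyp7b1, Atp11a and Slc6a18 was 701, 1186 and 1962 CPM at E18.5 and 387, 648 and 1392 at P3. Slc7a13, an aspartate and glutamate carrier of the last segment, was at 100, 183 and 375 CPM at E18.5 and at 21.4, 47.8 and 125 at P3. Slc5a8, a sodium-coupled monocarboxylate carrier, was at 155, 361 and 515 CPM and at 73.9, 222 and 391. Cell cycle genes did not follow this order, with summed levels of 731, 690 and 724 CPM at E18.5 and 530, 513 and 504 at P3. Median UMIs were also higher over these 3 bins, from 3398.5 to 4548 at E18.5 and from 4861 to 6964.5 at P3, and their part in this gradient was not tested. The bins were made from the rule genes, so the gradient is a description.

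**Figure D2:**
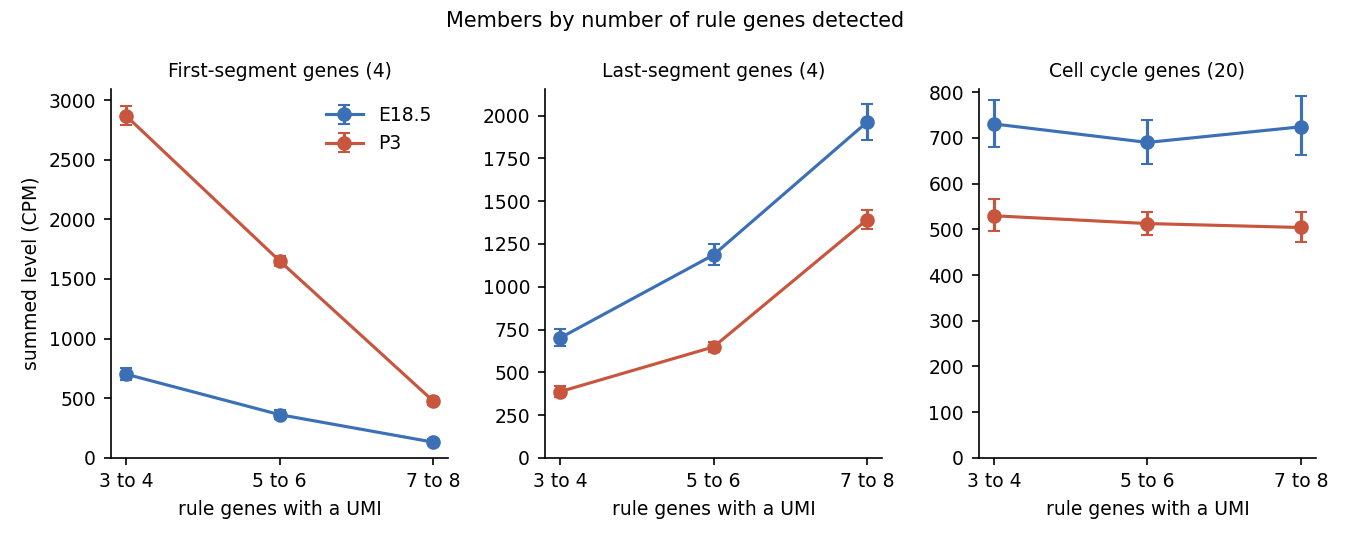
Summed level (CPM) of first-segment, last-segment and cell cycle genes in members with 3 to 4, 5 to 6 and 7 to 8 rule genes detected, at E18.5 and P3, with 95% counting intervals. First-segment genes are lower from left to right, last-segment genes are higher, and cell cycle genes lie between 690 and 731 CPM at E18.5 and between 504 and 530 at P3.

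The same genes could be followed per nucleus after thinning to 1000 UMIs. At E18.5, 199 of 749 members (26.6%) held a UMI of a first-segment gene and 451 (60.2%) of a last-segment gene, with 110 holding both. At P3, 510 of 1120 (45.5%) held a first-segment gene and 517 (46.2%) a last-segment gene, with 154 holding both. With independent detection 119.8 members at E18.5 and 235.4 at P3 would hold both, and no test was made. A larger share of members held a first-segment gene at P3 than at E18.5, and a smaller share held a last-segment gene.

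Members were then set against other proximal nuclei, which are kept nuclei outside the rule with at least 3 of 8 general proximal markers (Lrp2, Cubn, Hnf4a, Slc34a1, Slc4a4, Pdzk1, Slc13a3 and Ass1) at 0.3% of UMIs or more. There were 647 at E18.5 and 532 at P3, with median depths of 3150 and 4324.5 UMIs, and 20.6% and 23.5% of them were called doublets. Since the rule chose the members in this contrast, the values describe who was chosen and no test was made. A gene was counted when its ratio of CPM + 5 was at least 2 and it reached 20 CPM in either set. At E18.5, 153 of 8752 genes (1.75%) were at least 2 times higher in members and 82 (0.937%) lower. At P3, 121 of 8228 (1.47%) were higher and 120 (1.46%) lower. The counts of higher genes depended on the settings. They were 288 at E18.5 and 258 at P3 with other proximal nuclei taken from a share of 0.15%, and 101 and 82 with a filter of 50 CPM.

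Many transporters of organic anions and cations were higher in members. Beyond the rule genes, 10 of the 19 that passed the filter were at least 2 times higher in members at E18.5, against 1.75% of all genes. At P3 it was 9 of 20, against 1.47%. The median log2 ratios were 1.0 and 0.76, against -0.12 and -0.07 for all genes. Slc22a13, which carries urate and nicotinate, was at 61.9 CPM in members and 5.72 in other proximal nuclei at E18.5, and at 53.3 and 3.30 at P3. The ratios were 10.8 (95% interval 6.04 to 21.3) and 16.1 (8.10 to 37.7). Slc22a30 was at 325 against 109 CPM and at 367 against 110, and Slc22a28 at 178 against 79.6 and at 220 against 54.1. Abcc4, an export pump, went the other way, with 17.3 against 41.5 CPM at E18.5 and 49.8 against 108 at P3. The list thus held genes on either side.

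Sugar and monocarboxylate carriers differed in both directions. Slc5a8 was at 322 CPM in members and 58.2 in other proximal nuclei at E18.5, and at 231 and 41.3 at P3. The high-affinity glucose carrier gene Slc5a1 was at 107 against 45.3 CPM and at 90.6 against 23.5. The mannose and fructose carrier gene Slc5a10 was at 40.1 against 11.4 CPM and at 221 against 45.8. The high-capacity glucose carrier gene of the first segment, Slc5a2, was lower in members, with 18.4 against 51.5 CPM at E18.5 and 218 against 415 at P3. Slc5a12 was lower as well, at 255 against 587 and at 1112 against 1880. Slc2a2, the glucose carrier gene of the blood side, also counted as a first-segment gene, was at 150 against 143 CPM at E18.5 and at 256 against 301 at P3.

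Other last-segment genes were among those with the highest ratios. Atp11a, a phospholipid flippase, was at 451 against 91.1 CPM at E18.5 and 229 against 54.9 at P3. Slc7a13 was at 198 against 41.5 and at 62.2 against 7.84. Cyp7b1 was the exception in that list, with 58.2 against 86.8 CPM and 52.7 against 78.4. Among genes of at least 100 CPM in members, the 10 highest ratios at E18.5 included 6 rule genes, with Gm34240 (120 against 9.54 CPM), Ldc1 (134 against 11.9), D630008O14Rik (114 against 14.3) and Slc5a8. At P3 they included 4 rule genes, with Slc5a8, Gm20400, Mep1b, Slc5a10, Atp11a and Slc22a28. Gm20400 at chr6:142161493-142173796 is annotated as antisense inside Slco1a6, and its reads and those of Slco1a6 may not be fully told apart. Mep1b encodes a subunit of the brush border protease meprin, and was at 242 against 64.4 CPM and at 231 against 45.4.

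**Figure D3:**
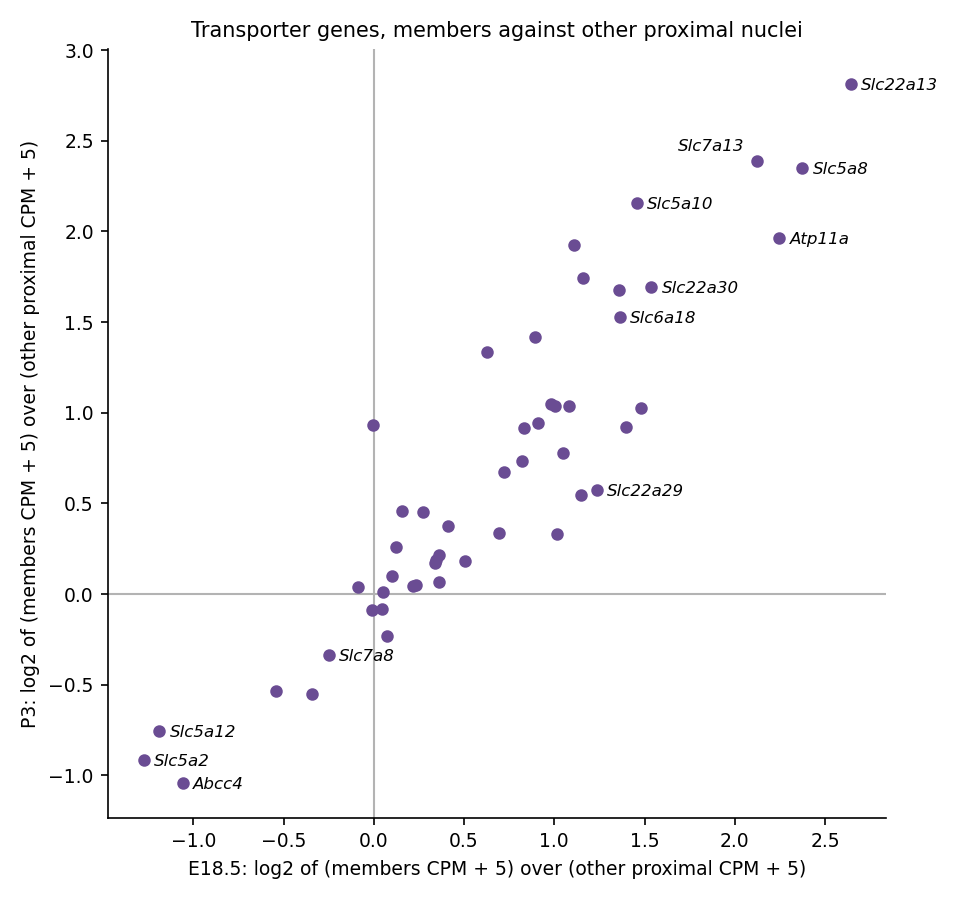
Each of 50 transporter and last-segment genes is a point, with the log2 ratio of members over other proximal nuclei at E18.5 on the x axis and at P3 on the y axis (CPM + 5 in both sets). There are 39 genes above 0 at both ages and 7 below 0 at both, and Slc22a13 lies furthest to the upper right.

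Cell cycle and fetal genes had medians below that of all genes in this contrast. The median log2 ratio of cell cycle genes was -0.48 at E18.5 (16 of 20 genes passing the filter) and -0.30 at P3 (11 of 20), against -0.12 and -0.07 for all genes, and 0 genes were 2 times lower. The proliferation marker Mki67 was at 77.2 against 104 CPM at E18.5 and 54.8 against 85.9 at P3. Early nephron and fetal genes had medians of -0.44 and -0.23, with 0 of 12 genes 2 times lower at E18.5 and 1 of 10 at P3. Of all genes only 0.937% were at least 2 times lower at E18.5 and 1.46% at P3, so the low counts say little about either list. At P3, 3 genes of each list were above 0. Sox4, a transcription factor gene of immature nephron epithelium, was at 53.0 against 94.9 CPM and at 42.3 against 60.7. The thyroid hormone receptor gene Thrb was higher in members, with 414 against 201 CPM and 547 against 293.

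Between the ages, 303 of 8506 genes (3.56%) were at least 2 times higher at P3 in members and 634 (7.45%) at least 2 times higher at E18.5. The median log2 ratio over these genes was -0.04 in members and -0.06 in the remaining nuclei. The ratio differed with the length of a gene's introns. In members the median log2 ratio was -0.46 for 128 genes with no intron, -0.58 for 958 genes with up to 5 kb of intron, 0.01 for 3743 genes with 20 to 100 kb and 0.22 for 1521 genes with over 100 kb, and in the remaining nuclei it was -0.57, -0.70, 0.02 and 0.33. When each ratio was centred on the genes of its own intron bin, which was chosen after seeing the data, 359 genes were higher at P3 and 397 at E18.5. The share of counted genes that were higher at P3 was then 47.5%, against 32.3% without centring. Immediate early genes, a sign of stress during tissue handling, also differed, with a summed level of 72.8 CPM in E18.5 members and 154 in P3 members, against 78.5 and 82.3 in the remaining nuclei. Of 7 genes 2 passed the filter, Jun (41.8 and 91.5 CPM) and Junb (10.5 and 30.3), and both were at least 2 times higher at P3 in members. Their part in the other differences was not tested. Whether capture, the Cell Ranger release or the nuclei set the pattern with intron length cannot be told apart.

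**Figure D4:**
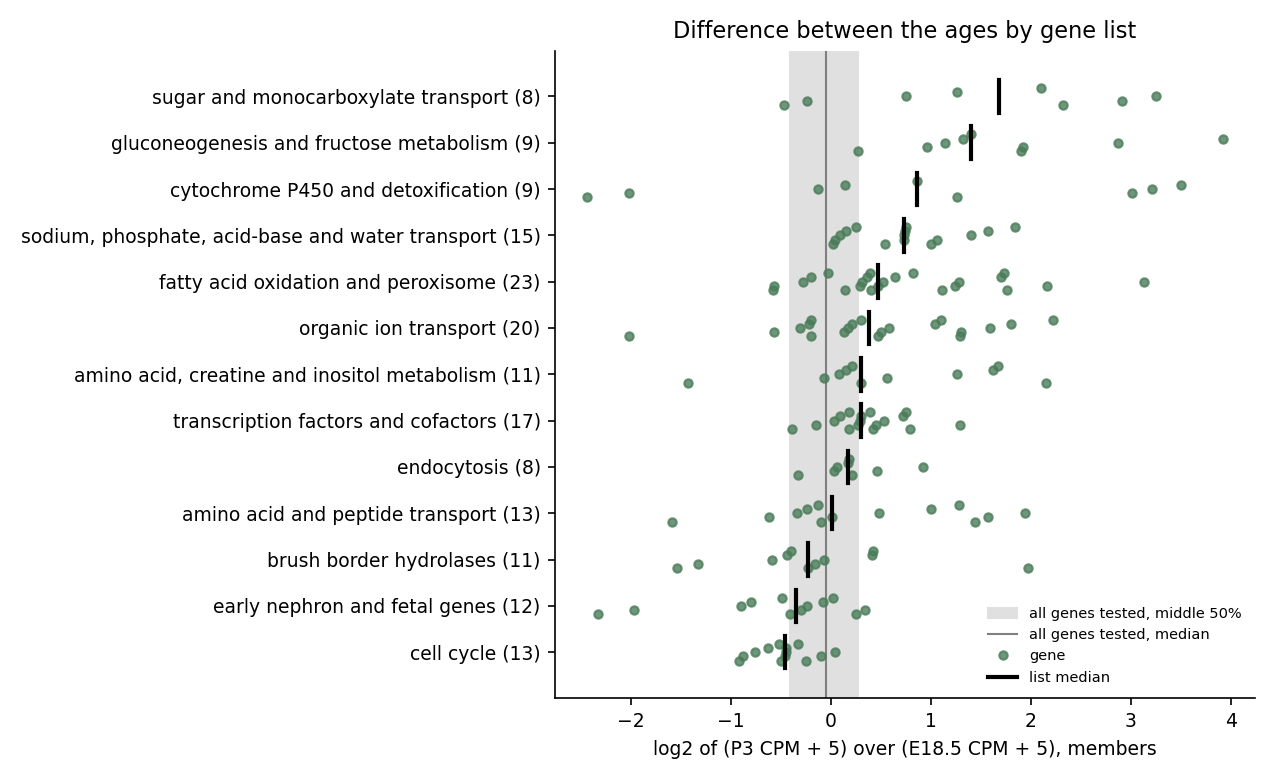
Log2 ratio of P3 over E18.5 in members (CPM + 5) for each gene of 13 lists, with the list median as a black bar, the number of genes passing the filter in brackets and the middle 50% of all genes tested in grey. The medians of sugar carriers and of gluconeogenesis lie furthest to the right, at 1.68 and 1.40, and that of cell cycle genes furthest to the left, at -0.46.

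Genes of glucose production were higher at P3. All 9 of the gluconeogenesis and fructose list were above 0, 7 were at least 2 times higher, 0 were lower, and the median log2 ratio was 1.40. Of all genes 3.56% were higher and 7.45% lower in members. In the remaining nuclei 2 of the 6 listed genes that passed the filter were at least 2 times higher, against 115 of all 8969 genes. Pck1, the enzyme gene of the committed step from oxaloacetate, was at 125 CPM in E18.5 members and 948 in P3 members, a ratio of 7.56 (95% interval 6.80 to 8.42). G6pc, whose product releases free glucose, was at 26.9 and 478 CPM, a ratio of 17.8 (14.3 to 22.6). In the remaining nuclei Pck1 was at 18.0 and 50.5 CPM and G6pc at 2.32 and 22.2. Both genes were also higher at P3 in other proximal nuclei, with ratios of 9.77 and 28.5. Fbp1, fructose-1,6-bisphosphatase, was at 435 and 850 CPM in members, and at 38.1 and 35.8 in the remaining nuclei. The higher level of Fbp1 at P3 was thus seen in proximal nuclei while the rest of the kidney had slightly less.

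Within the members, G6pc was highest in different nuclei at the 2 ages. It was at 43.1 CPM in members with 3 to 4 rule genes, 21.9 with 5 to 6 and 10.2 with 7 to 8 at E18.5, and at 493, 557 and 325 at P3. Pck1 was at 143, 132 and 86.3 CPM, and at 1018, 1023 and 751. Both genes were lowest in the members with the most rule genes at both ages.

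Sugar and monocarboxylate carriers had a median log2 ratio of 1.68, the highest of the 13 function lists, with 5 of 8 genes at least 2 times higher at P3 and 0 lower, against 3.56% and 7.45% of all genes. Slc5a2 was at 18.4 CPM in E18.5 members and 218 in P3 members, a ratio of 11.9 (9.04 to 15.9). Slc5a12 was at 255 and 1112 CPM, a ratio of 4.37 (4.05 to 4.71). Slc5a10 was at 40.1 and 221, and the fructose carrier gene Slc2a5 at 4.76 and 68.5. Slc5a1 and Slc5a8, which were higher in members than in other proximal nuclei, were lower at P3, at 107 and 90.6 CPM and at 322 and 231. Of the first-segment genes, Slc5a2, Slc5a12 and Slc2a2 are also in the sugar and monocarboxylate list, so the medians of these lists share genes. The 4 first-segment genes had a median log2 ratio of 2.03 with 3 at least 2 times higher, and the 4 last-segment genes -0.55 with 1, Slc7a13, at least 2 times lower. Members at P3 were therefore richer in first-segment RNA, and the mix of segments and the level per nucleus cannot be told apart in these sums.

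Fatty acid genes were higher at P3 in part. Of 23 genes 8 were at least 2 times higher and 0 lower, against 3.56% and 7.45% of all genes, with a median log2 ratio of 0.47, against 0.01 for the 16 that passed in the remaining nuclei. Pdk4, a kinase that diverts pyruvate from oxidation, was at 10.2 CPM in E18.5 members and 128 in P3 members. Ehhadh, an enzyme of peroxisomal oxidation, was at 33.3 and 167 CPM, and Acsl1, which activates long-chain fatty acids, at 126 and 422. Cpt1a, the carnitine transferase at the mitochondrial gate, was at 56.8 and 141 CPM in members, and at 23.1 and 71.8 in the remaining nuclei. Ppara, the lipid-sensing receptor gene, was at 112 and 196. Medium-chain dehydrogenase Acadm did not share the direction, at 172 and 149 CPM.

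The 10 highest ratios of P3 over E18.5 among genes with at least 100 CPM at either age included G6pc, Ctnna2, Slc5a2, Klf10, Pdk4, Cyp24a1, Slc25a25, Pck1 and Nuak2. Slc25a25, a mitochondrial ATP-magnesium and phosphate carrier gene with a cyclic AMP element in its window, was at 21.1 and 188 CPM in members and at 23.7 and 31.6 in the remaining nuclei. Ctnna2, an adhesion protein gene best known in neurons, was at 6.46 and 117 CPM and at 12.7 and 27.8. Klf10, a transcription factor gene, was at 18.7 and 216 and at 25.2 and 63.5. The kinase gene Nuak2 was at 54.7 and 426 CPM, and at 8.18 and 29.8. These genes were chosen for their ratio in members, so a smaller ratio elsewhere is no finding, and in other proximal nuclei the ratio was larger for G6pc (28.5), Cyp24a1 (14.2) and Pck1 (9.77).

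Cytochrome P450 and detoxification genes differed in both directions. Of 17 genes 9 passed the filter, 4 were at least 2 times higher at P3 and 2 lower, against 3.56% and 7.45% of all genes. Cyp4a10 and Cyp4a14, which hydroxylate fatty acids, were at 4.08 and 3.06 CPM in E18.5 members and 79.2 and 86.2 in P3 members. Cyp24a1, the enzyme gene that breaks down active vitamin D, was at 26.2 CPM at E18.5 and 246 at P3. Cyp27b1, the gene of the enzyme that makes it, was at 128 and 19.5 CPM, a ratio of 0.153 (0.124 to 0.187). The pair thus stood in opposite order at the 2 ages. In other proximal nuclei Cyp24a1 was at 22.9 and 324 CPM and Cyp27b1 at 77.7 and 24.8, and in the remaining nuclei at 1.77 and 13.6 and at 9.14 and 1.55. The vitamin D receptor gene Vdr was at 97.3 and 167 CPM in members.

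**Figure D5:**
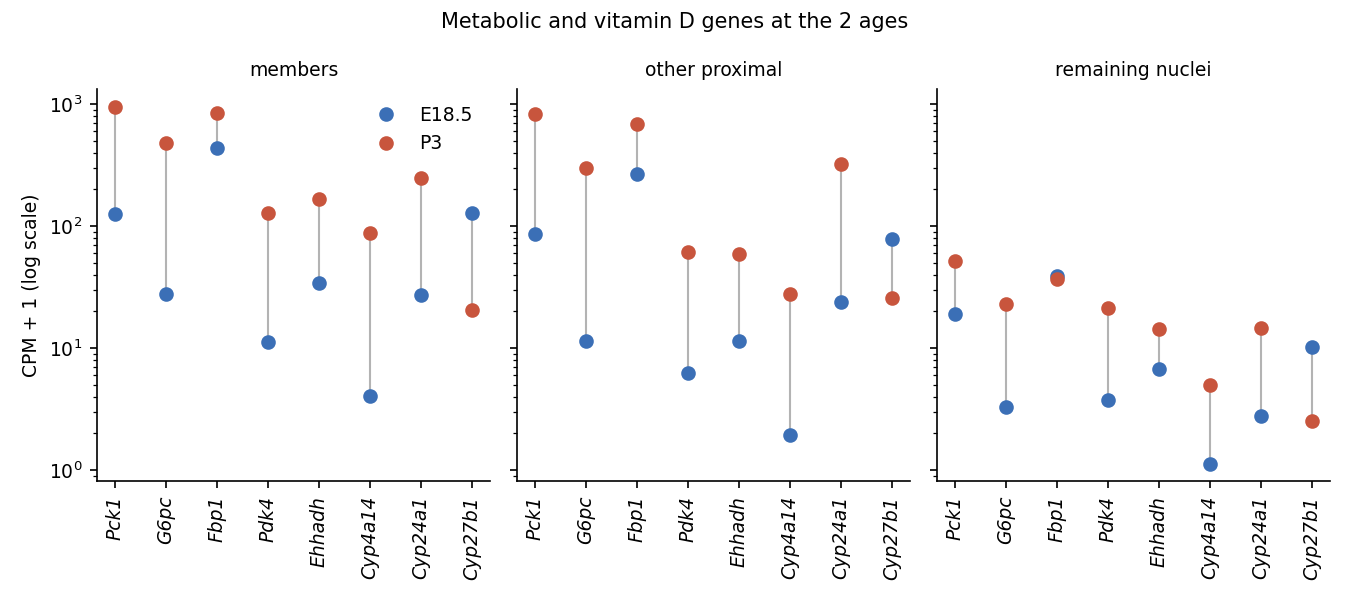
Level at E18.5 and P3 (CPM + 1, log axis) of gluconeogenic, fatty acid and vitamin D genes in members, other proximal nuclei and remaining nuclei, with a grey line joining the 2 ages of a gene. In members and other proximal nuclei 7 of the 8 genes are higher at P3 and Cyp27b1 is lower, while Fbp1 differs little in the remaining nuclei.

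Sodium, phosphate, acid-base and water carriers were higher at P3, with 15 of 15 genes above 0, against 3931 of all 8506, and a median log2 ratio of 0.74. Of the 15, 5 were at least 2 times higher, against 3.56% of all genes. Slc34a1, the main phosphate carrier of the brush border, was at 2202 and 3716 CPM in members, while the remaining nuclei were at 100.4 and 115. Slc9a3, which exchanges sodium for protons, was at 77.9 and 214 CPM, and the sulfate carrier gene Slc13a1 at 144 and 437. The water channel gene Aqp1 was low at both ages, at 26.9 and 58.9 CPM. Slc4a4, which moves bicarbonate to the blood side, was at 906 and 1505.

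Of 13 amino acid carriers 5 were at least 2 times higher at P3, against 3.56% of all genes, and 1 was lower, against 7.45%, with a median of 0.01. The exchangers of the blood side, Slc7a7 and Slc7a8, were at 155 and 428 CPM and at 203 and 614. The neutral amino acid carrier gene of the first segment, Slc6a19, was at 8.5 and 47.0, and that of the last segment, Slc6a18, at 484 and 441. Slc7a13 was at 198 and 62.2 CPM, a ratio of 0.315 (0.277 to 0.358).

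Among 20 organic ion carriers that passed the filter, 7 were at least 2 times higher at P3, against 3.56% of all genes, and 1 was lower, with a median of 0.38. Slc22a5, the carnitine carrier, was at 57.1 CPM in E18.5 members and 285 in P3 members. Slc22a29 was at 178.5 and 388, and Slc22a8, an organic anion exchanger of the blood side, at 123 and 258. Its partner Slc22a6 was at 157 and 126.5 CPM, and Slc22a22, which carries prostaglandins, at 102 and 21.4. The share that was lower was no larger than the 7.45% of all genes.

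Of 8 endocytosis genes 0 were past 2 times in either direction, against 3.56% higher and 7.45% lower among all genes, and the median was 0.18. Their summed level was 6357 CPM in E18.5 members and 9113 in P3 members. Dab2, an adaptor of megalin, was at 2513 and 4771 CPM, Lrp2 at 2739 and 3168 and the partner receptor gene Cubn at 685.5 and 771. Enzymes of amino acid, creatine and inositol metabolism had a median of 0.30, with 4 of 11 at least 2 times higher at P3 and 1 lower, against 3.56% and 7.45% of all genes. Miox, which opens the inositol ring, was at 76.2 and 355 CPM, and Prodh2, a hydroxyproline dehydrogenase gene, at 99.3 and 327. Brush border hydrolases had a median of -0.23. The peptidase genes Mme and Anpep were lower at P3, at 426 and 167 CPM and at 249 and 82.7, and the dipeptidase gene Dpep1 was higher, at 13.9 and 69.4.

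Transcription factor genes had a median log2 ratio of 0.30. Of 17 that passed, 1 was at least 2 times higher at P3, Maf at 250 and 619 CPM, and 0 were lower, against 3.56% and 7.45% of all genes. Hnf4a was at 259 and 295 and the estrogen-related receptor gene Esrra at 62.9 and 107. Cell cycle genes had a median of -0.46 in members and -0.32 in the remaining nuclei, and 0 of 13 were 2 times lower. Their summed level was 713 CPM in E18.5 members and 514 in P3 members, against 1552 and 1182 in the remaining nuclei. Of the early nephron and fetal genes, 0 of 12 were higher and 2 were lower, the imprinted genes Igf2 (76.8 and 11.3 CPM) and H19 (58.5 and 11.3). Both were also lower at P3 in the remaining nuclei, Igf2 at 110 and 22.6 CPM and H19 at 107 and 28.0.

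The 10 genes of at least 100 CPM that were lowest at P3 were of mixed kinds. Scd2, a fatty acid desaturase gene, was at 354 CPM in E18.5 members and 21.5 in P3 members, a ratio of 0.0608 (0.0508 to 0.0723), and at 221 and 62.4 in the remaining nuclei. Adamts1, a secreted protease gene, was at 371 and 39.4, and the noncoding transcripts Gm5427, Gm42620 and C430049B03Rik at 248 and 15.5, at 149 and 18.3 and at 228.5 and 31.8. The ribosomal protein genes Rpl7, Rps10 and Rps4x had ratios of 0.134 to 0.149 in members and of 0.180 to 0.197 in the remaining nuclei. The globin gene Hbb-bs, a mark of red blood cell RNA, was at 376 and 49.6 CPM in members and at 536 and 75.6 in the remaining nuclei. These genes were lower at P3 in nuclei of every set compared. Of the genes floxed in the E18.5 mice, Myc was at 19 and 2.78 CPM and Mycn at 10.5 and 4.10, both below the 20 CPM needed to be counted.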

How the data were processed

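Nuclei of pooled, snap-frozen whole kidneys were sequenced by the authors with the 10x Genomics Chromium 3′ kit, 1 library per age. The deposited files hold raw UMI counts per gene and barcode. The submitters' processing notes name Cell Ranger 5.0.1 and mm10, whereas the file headers give 7.0.0 for the E18.5 library and 5.0.1 for the other. Release 7 counts intronic reads by default and release 5 does not, which could affect every ratio between the ages. Whether intronic reads were counted in either library is not given in the sources used here. There were 21600 barcodes with 77688411 UMIs at E18.5 and 12216 with 70559806 at P3. Barcodes with 1000 to 6000 UMIs (E18.5) or 1000 to 10000 (P3) and up to 0.6% mitochondrial UMIs were kept. Members held 2940908 and 6828911 UMIs. The libraries shared 52 kept barcodes, 2 of them members in both.

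Counts were summed over nuclei and scaled to CPM. Levels have exact Poisson intervals and ratios exact conditional binomial intervals, at 95%. Log2 ratios use CPM + 5, with genes of at least 20 CPM in either set. Scrublet, run through scanpy 1.11.5, marked doublets, which were kept. Other tools were Python 3.11.15, numpy 2.4.6, scipy 1.17.1 and pandas 2.3.3. Gene positions came from GENCODE M21, which matched 32235 of 32285 identifiers. Promoter windows came from RefSeq, and for 53 of 60 genes the bases after the start were found in a GENCODE transcript on the same strand. On simulated counts for 7876 genes, 188 of 200 planted 3-fold changes, up or down, lay within their intervals and 195 passed 2-fold, as did 0 of 7676 unchanged genes. The simulated counts carried counting error only. They cannot show how often differences between animals or libraries would pass 2-fold.

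Members, gene lists and comparisons were chosen with earlier results of these data known. The genes named are those of the rule, those of fixed lists, and the 10 highest and 10 lowest ratios among genes of at least 100 CPM. Some of these genes are not reported here. The sex of single nuclei was not used: 66.9% of E18.5 members and 69.1% of P3 members held UMIs of both Xist and a Y chromosome gene. Xist alone was found in 143 and 20 members and a Y gene alone in 94 and 319, so these counts differed between the libraries. Another 18 settings were tried, as given in the closing section.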

Additional observations from a re-analysis of the deposited data

Results flagged for a closer look

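Barcodes above the upper UMI limit were left out of every comparison except under the setting without that limit, given below. Of them, 304 at E18.5 (13.2% of that class) and 487 at P3 (31.0%) met the marker rule. These shares are above the 4.01% and 12.1% of kept nuclei. Ppargc1a, a coactivator gene of mitochondrial biogenesis, had a ratio of members over other proximal nuclei of 1.357 at E18.5 (363 against 268 CPM) and 0.7919 at P3 (276 against 348). The estrogen-related receptor gene Esrrg had ratios of 0.8873 (2849 against 3211 CPM) and 1.032 (3513 against 3405). These were the 2 of 205 listed genes whose counting intervals lay on opposite sides of 1 at the 2 ages, and the difference between the ages was not tested.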

How the results depend on the processing

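The share of members depended on the rule. At E18.5 and P3 it was 4.72% and 13.9% with a minimum share of 0.10%, and 3.10% and 7.96% with 0.25%. With at least 2 genes it was 4.97% and 13.1%, with at least 4 genes 3.14% and 10.7%, and without Slc27a2 3.55% and 10.2%. Without an upper UMI limit it was 5.02% and 14.8%, and with nuclei thinned to 1000 UMIs 2.36% and 5.59%. With 6000 UMIs as the limit in both libraries it was 7.71% at P3, and without called doublets 11.2%. Without members that met another class's rule, a setting chosen after seeing the data, it was 2.96% and 10.1%. The share was higher at P3 in each of these.

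The 634 genes higher at E18.5 became 397 when ratios were centred within bins of intronic length, also chosen after seeing the data. The genes higher in members than in other proximal nuclei at E18.5 numbered 101 with a filter of 50 CPM. With other proximal nuclei taken from a share of 0.15% they numbered 288 at E18.5 and 258 at P3. No value tried changed direction: over the alternatives the log2 ratio of P3 over E18.5 ran from 3.70 to 4.15 for G6pc, from 2.80 to 3.45 for Pck1 and from -2.70 to -1.85 for Cyp27b1. No paired analysis was possible because each age has 1 library. Depth limits low genes: Cyp4a14 rests on 9 UMIs in E18.5 members.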

Other observations

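Among leukocyte markers, Csf1r, the receptor gene of the macrophage growth factor, was the most abundant in members. Csf1r was at 40.1 CPM in E18.5 members, 37.2 in other proximal nuclei and 9.89 in the remaining nuclei, and at 23.0, 16.9 and 15.7 at P3. The summed level of the 6 leukocyte markers in members was 63.2 CPM at E18.5 and 53.4 at P3, against 60.6 and 117 in the remaining nuclei. The leukocyte rule was met by 2 members at E18.5 and 5 at P3.

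Of 5 tubule injury genes 2 passed the filter and 1 was at least 2 times lower at P3, against 7.45% of all genes. That gene, Vcam1, was at 23.1 CPM in E18.5 members and 4.69 in P3 members. The summed level of the list, led by Spp1, was 115 and 82.7 CPM in members, against 102 and 73.7 in the remaining nuclei. Keg1, a gene named for its expression in kidney, was at 641 CPM in E18.5 members and 236 in P3 members, and at 447 and 158 in other proximal nuclei.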
